A study of Mus musculus with 6 samples.

Results

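Among the 451 miRNAs listed for mouse T cell blasts and their small extracellular vesicles (EVs), 4 entries were examined: mmu-miR-5099, mmu-miR-706, mmu-miR-703 and mmu-miR-6240. They were picked by name, because their names carry no arm suffix (-5p or -3p), because they may be fragments of other RNAs, and because their level differed widely between cells and small EVs. That difference is therefore described without a test. mmu-miR-5099 took 12.4% to 14.2% of the listed reads of the cells and 1.88% to 4.16% of those of the small EVs. The other 3 entries were higher in small EVs, where together they took 0.0350% to 0.111% of the reads, against 0.00286% to 0.00634% in cells.

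The data are 6 small RNA libraries, 3 from T cell blasts and 3 from the small EVs these cells secreted, numbered 1, 2 and 5 in both groups. The mice were wild-type C57BL/6, aged 8 to 12 weeks, and carried no engineered allele. Splenocytes were activated for 36 h with 2 μg/ml of the lectin concanavalin A and then expanded with 50 U/ml of IL-2, the growth factor of activated T cells. The medium held 10% fetal bovine serum, which the methods call exosome-free for the step with IL-2. The small EVs were collected from the medium on day 6 with a last spin at 100000 g. Both groups thus share the same culture, no sorting of T cells is described in the labels, and the number of mice behind each culture is not given in them. The values are normalized CPM, the reads of a miRNA relative to the scaled size of its library, set by the trimmed mean of M values (TMM), from which the reads could be recovered.

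miRNAs are short RNAs that guide Argonaute proteins to messenger RNAs. The enzymes Drosha and Dicer cut them from one or both arms of a hairpin-shaped precursor, and an entry named without an arm is one for which the database lists a product of that hairpin without saying which arm it is. The seed, the bases just after the 5′ end, does most of the target pairing. EVs carry miRNAs together with pieces of ribosomal, transfer and messenger RNA, and a read of such a piece is counted as a miRNA when it aligns to a mature miRNA.

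The mature sequences in RefSeq on GRCm38.p6 are shown for 3 entries, because the matches to other transcripts described further on rest on them. Capitals mark the seed, bases 2 to 8 from the 5′ end.
mmu-miR-706: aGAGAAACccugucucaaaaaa
mmu-miR-703: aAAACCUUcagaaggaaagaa
mmu-miR-6240: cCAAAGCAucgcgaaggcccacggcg
For mmu-miR-5099 the hairpin of its gene is shown, without capitals.
Mir5099 hairpin: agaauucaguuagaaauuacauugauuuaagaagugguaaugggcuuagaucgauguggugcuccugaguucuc

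The seeds of these 3 mature sequences differed from each other. No other listed miRNA shared the seed of mmu-miR-706 or mmu-miR-703, and 1 shared that of mmu-miR-6240, namely mmu-miR-330-3p. At 26 bases mmu-miR-6240 was as long as the longest of the 367 other listed miRNAs with a sequence, of which 4 reached 26 bases and whose median was 22. Its GC content was 69.2%, which 9 of the 367 equalled or exceeded, against a median of 50.0%. mmu-miR-706 has 22 bases and ends in a run of 6 adenines, and 2 of the 367 others had a run of 6 or more of any base. mmu-miR-703 has 21 bases and a GC content of 33.3%.

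The 4 genes lie apart in the genome (GENCODE M21 and RefSeq, GRCm38). Mir5099 lies at chr12:36816205-36816278 on the plus strand and overlaps no annotated gene. Mir706 lies at chr6:120034228-120034311 on the minus strand, in an intron of Wnk1, a kinase gene of ion transport, and on the same strand. Mir703 lies at chr5:98475556-98475664 on the minus strand, in an intron of Cfap299 that runs on the opposite strand. Mir6240 lies at chr5:114851948-114852064 on the plus strand and overlaps no annotated gene.

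As to the libraries, the listed reads numbered 236432 to 279737 in cells and 261393 to 463498 in small EVs. A floor of 3 reads was used, about the upper 95% bound on the expected count when 0 reads are seen. These 3 reads were worth 11.0 to 14.4 CPM in cells and 6.28 to 10.4 CPM in small EVs. All 7 markers of T cells and blood cells were listed, with sums of 213765 to 236020 CPM in cells and 171886 to 212761 CPM in small EVs. The sums hide members that went opposite ways. Their log2 ratios of small EVs to cells ran from -1.19 for mmu-miR-142a-3p to 1.71 for mmu-miR-146a-5p. Of the markers of other cells, the red cell, stromal, endothelial and myeloid ones were low in cells and higher in small EVs, and the epithelial one overlapped. The 3 red cell miRNAs summed to 109 to 134 CPM in cells, where mmu-miR-451a and mmu-miR-144-3p had no reads, and to 653 to 943 CPM in small EVs. The 2 of 3 stromal and endothelial miRNAs that were listed summed to 47.9 to 66.0 CPM in cells and 549 to 797 CPM in small EVs, the myeloid mmu-miR-223-3p had 0 to 3.67 CPM and 15.3 to 20.9 CPM, and the 1 of 2 epithelial miRNAs that was listed had 0 to 14.4 CPM and 10.4 to 15.3 CPM. The red cell, stromal, endothelial and myeloid markers thus moved with the contrast between cells and small EVs, and their part in the values of the 4 entries was not tested. In bulk libraries fewer cells of a type and less RNA per cell cannot be told apart.

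mmu-miR-5099 was the abundant one of the 4. Its level was 127972, 145560 and 149865 CPM in T cell blasts 1, 2 and 5, and 36786, 39436 and 17079 CPM in small EVs 1, 2 and 5. Every library of cells was above every library of small EVs, and small EVs 5 was the lowest of all 6. In reads these were 34163, 39706 and 31314 in cells and 17562, 18057 and 4919 in small EVs. So many reads leave little counting error: the share of T cell blasts 1 was 12.4% (exact binomial 95% interval 12.3% to 12.5%) and that of small EVs 5 was 1.88% (1.83% to 1.93%), intervals that cover counting error only.

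The mean level of mmu-miR-5099 was 141132 ± 11598 CPM in cells against 31101 ± 12215 CPM in small EVs (SD, n = 3 each), 4.54-fold higher in cells. Its log2 ratio of small EVs to cells was -2.27, where a log2 ratio is the difference of the group means of log2(CPM + 1) and not the log2 of that fold. Its share of the reads was 13.3% ± 0.902 in cells and 3.28% ± 1.22 in small EVs (SD, n = 3 each). Within the libraries of 1 number, cells exceeded small EVs by 3.48-fold for number 1, 3.69-fold for number 2 and 8.77-fold for number 5. The size of the ratio thus differed by number, and without number 5 in both groups the log2 ratio was -1.84.

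By rank, mmu-miR-5099 was the 2nd most abundant of the 451 entries in T cell blasts 1 and 2 and the 1st in T cell blasts 5. By group mean it stood between mmu-miR-92a-3p, a member of the miR-17-92 cluster that promotes lymphocyte growth, with 153280 ± 13649 CPM, and mmu-miR-21a-5p, a miRNA of activated T cells, with 127942 ± 12603 CPM (SD, n = 3). The ranges of the 3 overlapped in cells, so their order is not resolved there. In small EVs mmu-miR-5099 ranked 7th, 6th and 13th in libraries 1, 2 and 5, between mmu-let-7f-5p with 34196 ± 7649 CPM and mmu-miR-142a-5p, which marks cells of the blood lineages, with 29849 ± 4474 CPM, again with overlapping ranges.

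The replicates of mmu-miR-5099 were close in cells and spread in small EVs. Its coefficient of variation was 8.22% over the 3 libraries of cells, below the median of 13.1% for the 61 miRNAs of at least 1000 CPM. In small EVs it was 39.3%, the 3rd highest of 65 such miRNAs, against a median of 12.9%. Counting error alone would give 0.860% at this depth.

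mmu-miR-706 was at the edge of detection in cells. It had 2, 1 and 1 reads in T cell blasts 1, 2 and 5, and 38, 51 and 71 reads in small EVs 1, 2 and 5. On the normalized scale these were 7.49, 3.67 and 4.79 CPM in cells against 79.6, 111 and 247 CPM in small EVs. Every library of cells was below the floor of 3 reads, so its level in cells rests on 4 reads in all. Small EVs 5 was again the farthest of the small EVs, here the highest. The mean was 5.31 ± 1.97 CPM in cells against 146 ± 88.6 CPM in small EVs (SD, n = 3 each), a log2 ratio of 4.42 on the scale of log2(CPM + 1). From the pooled reads, 4 in cells and 160 in small EVs, the ratio per scaled library size was 24.5-fold, with a 95% interval from counting of 9.38 to 90.9.

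mmu-miR-703 was the steadiest of the 3 low entries. It had 3, 3 and 2 reads in T cell blasts 1, 2 and 5 and 54, 63 and 29 reads in small EVs 1, 2 and 5. This corresponds to 11.2, 11.0 and 9.57 CPM in cells against 113, 138 and 101 CPM in small EVs. No library of cells was above 3 reads, and the 3 libraries of small EVs lay within 1.37-fold of each other, without the departure of number 5 seen for mmu-miR-706. The mean was 10.6 ± 0.901 CPM in cells against 117 ± 18.8 CPM in small EVs (SD, n = 3 each), a log2 ratio of 3.34. From 8 and 146 pooled reads the ratio was 11.2-fold, with a counting interval of 5.52 to 26.4. Its coefficient of variation in small EVs, 16.0%, was close to the 14.3% that counting alone would give.

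mmu-miR-6240 was the highest of the 3 low entries and the most uneven. It had 6, 4 and 12 reads in T cell blasts 1, 2 and 5 and 70, 110 and 189 reads in small EVs 1, 2 and 5. These amount to 22.5, 14.7 and 57.4 CPM in cells against 147, 240 and 656 CPM in small EVs. The library numbered 5 was the highest in both groups, and the groups still did not overlap. The mean was 31.5 ± 22.8 CPM in cells against 348 ± 271 CPM in small EVs (SD, n = 3 each), a log2 ratio of 3.36, which was 2.76 without small EVs 5. From 22 and 369 pooled reads the ratio was 10.3-fold, with a counting interval of 6.68 to 16.6. The range over the small EVs was 4.48-fold and that over the cells 3.92-fold.

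**Figure D1:**
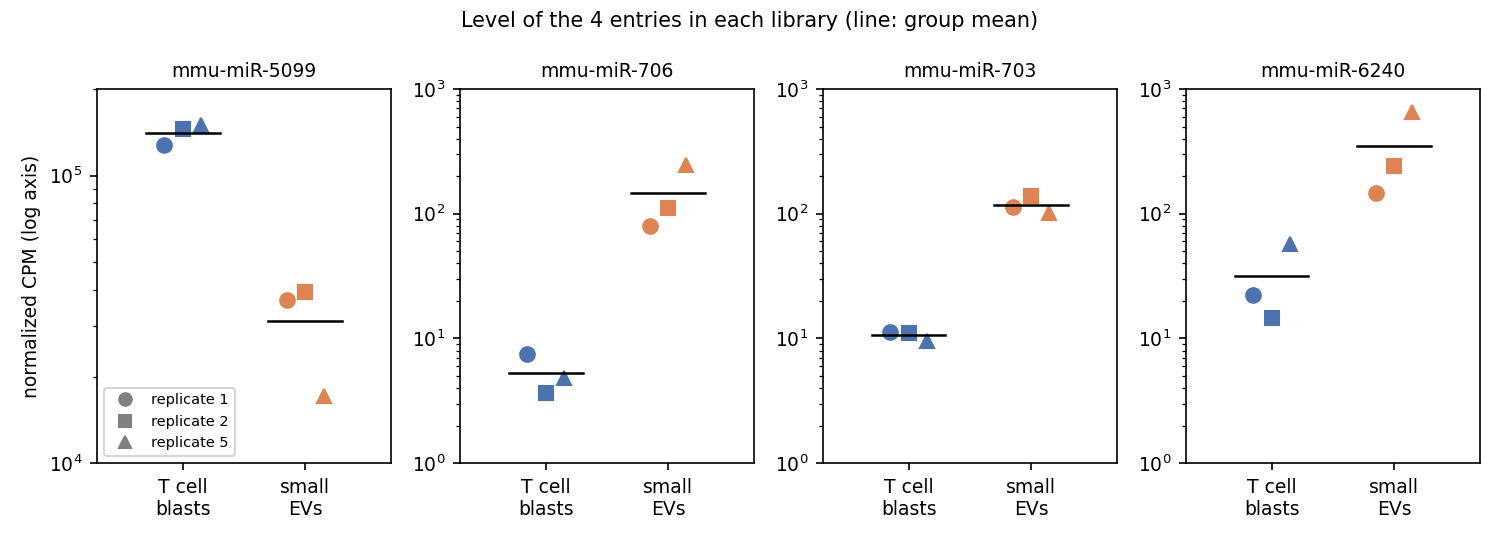
Normalized CPM (vertical log axis, the first panel on a range of its own) of the 4 entries in the 3 libraries of T cell blasts (blue) and the 3 of small EVs (orange), with the shape of a point giving the replicate number and the black line the group mean. mmu-miR-5099 is at 127972 CPM or more in every library of cells and at 39436 CPM or less in small EVs, the other 3 entries are higher in every library of small EVs, and number 5 is the lowest of the small EVs for mmu-miR-5099 and the highest for mmu-miR-706 and mmu-miR-6240.

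None of the 4 entries overlapped between the groups. Over all 451 entries the small EVs lay wholly above the cells for 20.4% and wholly below for 14.4%. In the limma fit across all entries (Benjamini-Hochberg adjusted p under 0.2), 95 entries, 21.1%, were called higher in small EVs, among them mmu-miR-706, mmu-miR-703 and mmu-miR-6240, and 56, 12.4%, were called lower, among them mmu-miR-5099. Scaled to the miRNAs under 5% of a library, the same fit called 83 higher and 76 lower. Since the 4 were chosen for this contrast, these counts describe the choice. Ordered by the log2 ratio, mmu-miR-706 was 6th, mmu-miR-6240 18th and mmu-miR-703 19th from the top, and mmu-miR-5099 was 15th from the bottom.

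The library of small EVs numbered 5 was set against the mean of the other two small EV libraries over the 145 miRNAs of at least 100 CPM in small EVs, whose median log2 difference was -0.03. mmu-miR-6240 was 1.80 higher on the log2 scale in small EVs 5, the 2nd largest of the 145 after mmu-miR-31-5p at 1.90. mmu-miR-706 was 1.38 higher, the 5th largest. On the other side mmu-miR-5099 was at -1.16, the 3rd lowest, where the lowest was mmu-miR-150-5p, a miRNA of resting lymphocytes, at -1.44. mmu-miR-703 was at -0.31, the 37th lowest. In the cells of number 5 mmu-miR-6240 was 1.61 higher than in the other two, from only 12 reads, whereas mmu-miR-5099 (0.13), mmu-miR-706 (-0.12) and mmu-miR-703 (-0.20) were close to them. The 4 entries thus did not share 1 pattern over the small EVs, and the ratio of mmu-miR-6240 to mmu-miR-703 reads, 1.30 in small EVs 1 and 1.75 in small EVs 2, was 6.52 in small EVs 5.

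For each entry the 3 miRNAs with the most similar pattern over the 6 libraries were sought among 182 with at least 50 CPM in either group. Likeness was Pearson's r of log2(CPM + 1), which compares the rise and fall over the libraries and not the level or the size of the ratio. These coefficients describe 6 points that fall into 2 groups and share their libraries, so any miRNA with a large difference of the same sign scores high. For mmu-miR-5099 they were mmu-miR-296-5p (r = 0.99), with means of 62.7 CPM (cells) and 15.6 CPM (small EVs), and the 2 arms of mmu-miR-142a, -3p (0.98) and -5p (0.98). For mmu-miR-706 they were mmu-miR-186-5p (0.99), with means of 9300 CPM (cells) and 12527 CPM (small EVs), mmu-miR-3470b (0.98) and mmu-miR-466i-5p (0.97). For mmu-miR-703 they were mmu-miR-342-3p, mmu-miR-10b-5p and mmu-miR-486a-5p, each at 0.99, and the last of these is a red cell miRNA that cannot be told from mmu-miR-486b-5p by its sequence. mmu-miR-6240 came closest to mmu-miR-155-5p (0.96), a miRNA induced by lymphocyte activation, then mmu-miR-466i-5p (0.95) and mmu-miR-181d-5p (0.94).

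Because mmu-miR-5099 took so large a share of the cells, its effect on the scaling of the libraries was measured. The normalized CPM of a library summed to 1063273 ± 59227 in cells and 941810 ± 31961 in small EVs (SD, n = 3 each), 11.4% less in small EVs. Without mmu-miR-5099 the sums were 922141 ± 53031 and 910709 ± 21964, which differ by 1.24%. Of the difference of 121463 CPM between the group means, mmu-miR-5099 made up 110032 CPM. Leaving out the other 3 entries as well changed the difference of the sums to 1.30%.

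**Figure D2:**
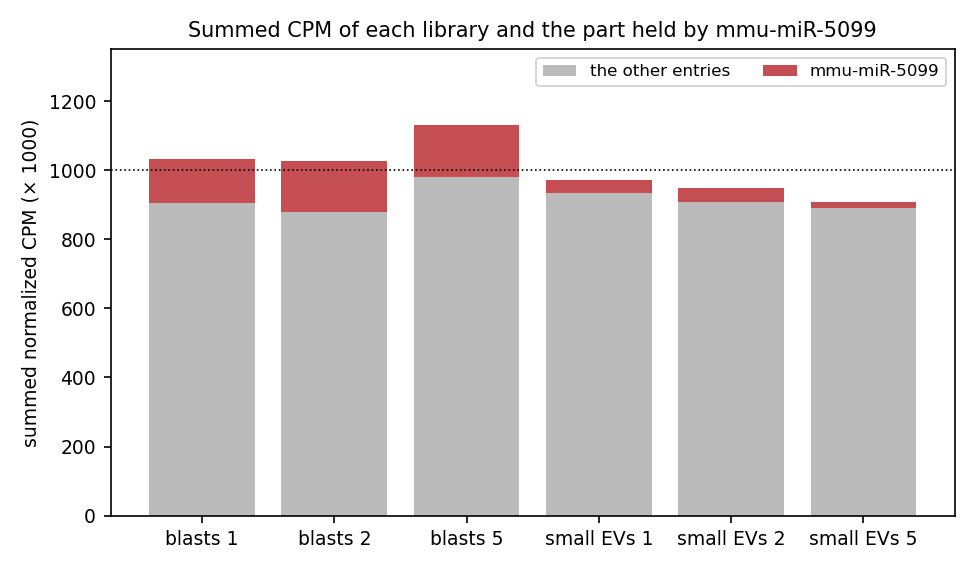
Summed normalized CPM (axis divided by 1000, from 0) of each of the 6 libraries, split into mmu-miR-5099 (red) and all other entries (grey), with the dotted line at 1000000 CPM. The red piece is 127972 to 149865 CPM in T cell blasts and 17079 to 39436 CPM in small EVs, and the grey pieces of the 2 groups are closer to each other than the whole bars.

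TMM scaling, which trims the miRNAs with the most extreme ratios before it sets a library's size, was little affected by the 4 entries. The TMM factors computed here from all 451 entries were 0.968, 0.975 and 0.884 for T cell blasts 1, 2 and 5 and 1.03, 1.06 and 1.10 for small EVs 1, 2 and 5, and multiplied by the listed reads they gave the library sizes behind the deposited CPM. Without the 4 entries the factors were 1.01, 1.04 and 0.934 for cells and 0.982, 1.01 and 1.02 for small EVs. Every factor of cells was below every factor of small EVs with the 4 entries in, and the groups overlapped without them, while the sums they multiply moved the other way. The ratio of small EVs to cells was 1.42 for the listed reads and 1.59 for the listed reads without the 4 entries. For the TMM-scaled sizes it was 1.61 with them and 1.60 without them, a change of -0.47%. The change became 2.73% when small EVs 5 was left out. It was -2.37% with a logratioTrim, the share of ratios trimmed at each end, of 0.3 in place of 0.4.

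Scaling every library to the same sum, in contrast, moved with the 4 entries. Over the other 447 miRNAs the median log2 ratio of small EVs to cells was 0.01 in the deposited values, 0.18 when all libraries were scaled to an equal sum of CPM, and 0.02 when that sum left the 4 entries out. The shift of -0.15 came almost wholly from mmu-miR-5099, since leaving out that entry alone also gave -0.15, and leaving out mmu-miR-706, mmu-miR-703 and mmu-miR-6240 gave a change of 0.00087. Without small EVs 5, the library with the least mmu-miR-5099, the shift was -0.10. Scaling to the miRNAs that each held under 5% of a library gave a median of -0.13, and median-of-ratios size factors gave 0.02.

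**Figure D3:**
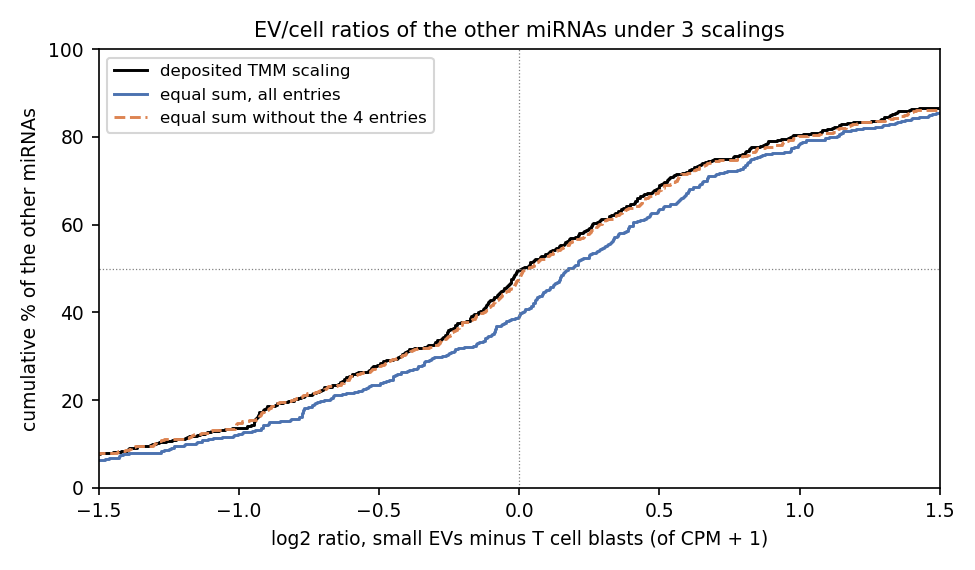
Cumulative percent of the other 447 miRNAs (vertical axis) by their log2 ratio of small EVs to T cell blasts (horizontal axis, drawn from -1.5 to 1.5) under the deposited TMM scaling (black), an equal sum over all 451 entries (blue) and an equal sum without the 4 entries (orange, dashed). The blue curve lies to the right, with a median of 0.18, and the other two nearly coincide, with medians of 0.01 and 0.02.

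The calls among the other 447 miRNAs followed. In the deposited values 92 were higher and 55 lower in small EVs (limma, adjusted p under 0.2). Equal sums over all entries gave 107 higher and 47 lower, and equal sums without the 4 entries gave 92 higher and 54 lower. Between these 2 scalings 22 calls changed, 15 that were no longer higher and 7 that became lower, and none turned from one direction to the other. Between the deposited values and equal sums without the 4 entries 3 calls changed, those of mmu-miR-29a-3p, mmu-miR-425-5p and mmu-miR-365-3p.

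Of the miRNAs no longer called higher once the 4 entries were left out of the sum, the most abundant were mmu-miR-19b-3p of the miR-17-92 cluster, mmu-miR-378a-3p, mmu-miR-29a-3p, mmu-miR-103-3p and mmu-miR-423-3p. For mmu-miR-19b-3p, whose means were 7184 CPM (cells) and 7926 CPM (small EVs), the log2 ratio was 0.32 (limma, Benjamini-Hochberg adjusted p = 0.0879) with equal sums over all entries and 0.16 (adjusted p = 0.402) without the 4 entries. Of those that became lower, the most abundant were mmu-miR-30c-5p, mmu-miR-148b-3p, mmu-let-7d-5p, mmu-miR-147-3p and mmu-miR-28a-5p. For mmu-let-7d-5p, whose means were 1968 CPM (cells) and 1554 CPM (small EVs), the log2 ratio was -0.17 (limma, adjusted p = 0.396) and -0.32 (adjusted p = 0.0810) under the same 2 scalings.

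Matches of the mature sequences to other transcripts were counted over 141767 GENCODE transcripts of 55450 genes, for the 370 listed miRNAs with a sequence in RefSeq. A match was the whole mature sequence, letter for letter, on the sense strand and outside the miRNA's own locus. Of the 367 other miRNAs, 356 had no such match outside miRNA genes, 11 had at least 1 and 2 had at least 100. The 3 entries with a mature sequence differed from each other on this count.

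The sequence of mmu-miR-706 was found in transcripts of 208 other genes on the sense strand and of 249 on the antisense strand. By type, 125 of the sense transcripts were protein-coding and 83 retained an intron. The 2 other miRNAs with over 100 genes were mmu-miR-3470b with 546, higher in small EVs with a log2 ratio of 1.17, and mmu-miR-3473b with 344, lower in small EVs with a log2 ratio of -1.64. Of the 11 others with at least 1 match, 4 were called higher and 2 lower in small EVs (limma, adjusted p under 0.2), with a median log2 ratio of 0.56. Of the 356 others with none, 71 were called higher and 42 lower, with a median of 0.04. Over all 451 entries 95 were called higher and 56 lower. A link between matches and direction was not tested. In the RefSeq promoters, 250 bases before to 50 after a gene's start, the sequence was in 2 of 32851, or 0.00609%, searched on both strands.

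The sequence of mmu-miR-703 was found in 1 gene outside miRNA genes, Eef1a1, which encodes the translation elongation factor 1 alpha and is among the most abundant messenger RNAs of dividing cells. It lay in the last of 8 exons, in the 3′ UTR, at bases 1636 to 1656 of the 1794 of transcript Eef1a1-201, or chr9:78478587-78478607 on the minus strand. The Mir703 hairpin as a whole aligned to the same transcript over 109 positions with 98.2% identity. Of 272 hairpins of listed miRNAs, 8 had a match of at least 90% identity over at least 90% of their length outside miRNA genes and their own locus, and Mir703 was 1 of them. The mature sequence was also in 3 predicted miRNA genes, Gm26377, Gm26384 and Gm23061. Reads of mmu-miR-703 therefore cannot be told apart from reads of that stretch of Eef1a1 by sequence, and whether they came from it was not tested.

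The sequence of mmu-miR-6240 was found in no other transcript searched, and the hairpins Mir6240 and Mir5099 had no match of that identity and length. A search over nearly the whole hairpin cannot show a match as short as a mature miRNA. The mature sequence of mmu-miR-5099 was not searched, so whether its reads match another RNA was not tested. Of the transcripts annotated with the type rRNA, only 1 was longer than 200 bases, at 1849 bases. The large ribosomal RNAs of nuclear genes and their precursor were thus not searched as a whole.

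**Figure D4:**
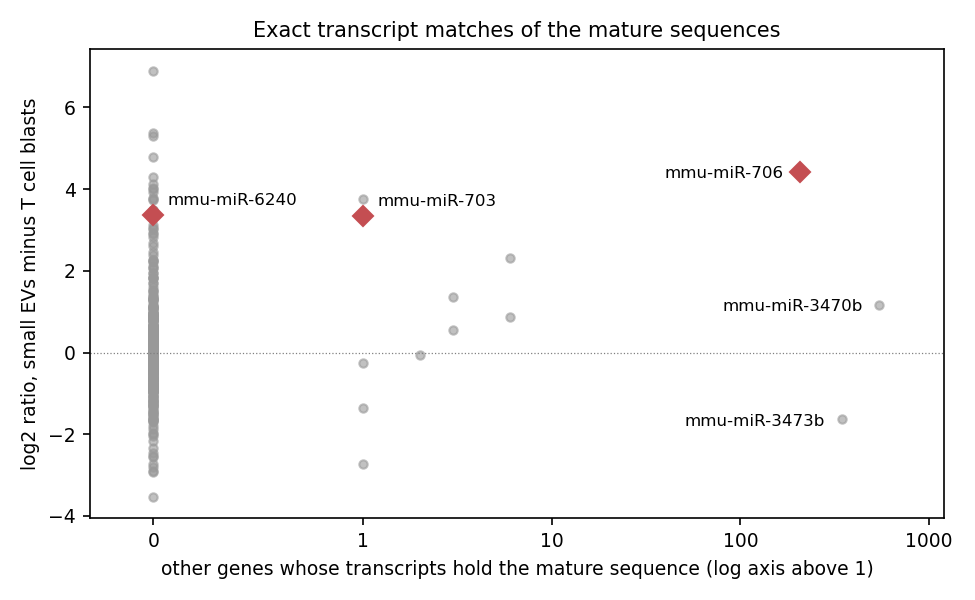
Log2 ratio of small EVs to T cell blasts (vertical axis) against the number of other genes, miRNA genes left out, whose transcripts hold the mature sequence (horizontal axis, logarithmic above 1, with 0 shown at the left) for 370 miRNAs, the 3 entries as red diamonds and the others as grey points. mmu-miR-706 stands at 208 genes beside mmu-miR-3470b at 546 and mmu-miR-3473b at 344, which lie on either side of a ratio of 0, and mmu-miR-703 and mmu-miR-6240 stand at 1 and 0.

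The predicted folding of the hairpins was compared as energy per base, where a more negative value is a more stable fold. The hairpin of Mir706 was absent from the sequences used, so it was neither folded nor searched for matches. Mir703 had -0.18 kcal/mol per base, the weakest fold of the 272 hairpins. Mir6240 had -0.21, with 1 of 269 other hairpins above it. The hairpin of mmu-miR-5099 had -0.36, and 43 of the 269 others were less stable, so it lay within the range of the others, whose median was -0.43. In the predicted fold 90.5% of the bases of mature mmu-miR-703 were paired, and 73.1% of those of mmu-miR-6240, against a median of 82.6% for the others.

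**Figure D5:**
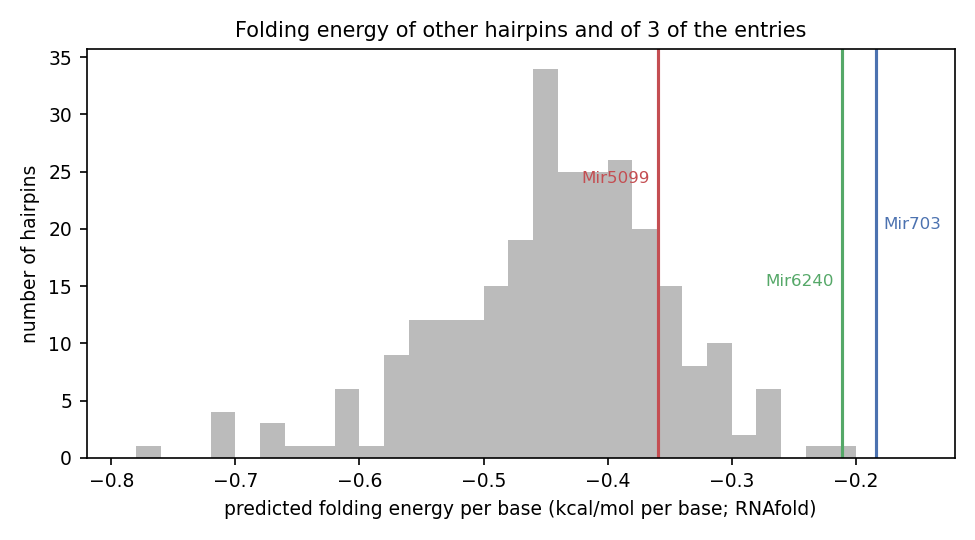
Number of hairpins (vertical axis) by predicted folding energy per base (horizontal axis, kcal/mol per base) for 269 other hairpins of listed miRNAs (grey), with lines for Mir5099 at -0.36, Mir6240 at -0.21 and Mir703 at -0.18. The lines of Mir703 and Mir6240 lie at the weak end of the histogram and that of Mir5099 lies inside it.

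The other entries without an arm suffix went both ways. Of the 41 other entries without a suffix, 13 were higher and 6 lower in small EVs and 22 passed in neither direction (limma, adjusted p under 0.2), with a median log2 ratio of 0.04, beside 95 and 56 of all 451 with a median of 0.02. The 5 most abundant were mmu-miR-142b with a log2 ratio of -0.91, mmu-miR-484 (0.04), mmu-miR-3473b (-1.64), mmu-miR-3535 (-0.02) and mmu-miR-3470b (1.17). Of these 5, mmu-miR-142b and mmu-miR-3473b were called lower and mmu-miR-3470b higher. The most abundant of the 41, mmu-miR-142b, had a mean of 3280 CPM in cells, so none came near the share that mmu-miR-5099 held.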

How the data were processed

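Small RNA of 3 libraries of T cell blasts and 3 of small EVs was grouped by the sample titles. According to the methods, the authors trimmed reads with Cutadapt, dropped those under 20 bases, matched the remaining reads to the mature mouse entries of miRBase with quantification by RSEM and kept miRNAs of at least 1 CPM. The submitters' processing notes name CASAVA 1.8.2, BWA and RSEM 1.17. The deposited signal is a normalized CPM, scaled by the authors with TMM (logratioTrim of 0.4) in edgeR. A read that matches a miRNA by sequence is counted as that miRNA, whatever RNA it came from. Of the deposited values, 100% lay within 0.05 of a whole number of reads, which allowed the reads to be recovered.

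Differences are small EVs minus cells in limma 3.58.1 (R 4.3.3) on log2(CPM + 1) with a trend, adjusted by Benjamini-Hochberg over 451 entries, with a threshold of 0.2. Replicates are described as independent experiments. Equal sums scaled each library to 1000000. Matches used GENCODE M21 and BLAST 2.17.0, folding used RNAfold 2.7.2, and intervals were exact binomial. The edgeR 4.0.16 count test on recovered reads called 84 higher and 70 lower with the replicate number as a block. DESeq2 1.42.0 was another alternative. Libraries of the same number deviated together (r = 0.15, 0.16 and 0.34 for numbers 1, 2 and 5 over 284 miRNAs, each above 0.1). Small EVs 1 also correlated with T cell blasts 2 (0.17), and small EVs 2 with T cell blasts 1 (0.11). These values set only number 5 apart, so they cannot decide whether numbers 1 and 2 are pairs, and the labels do not say. The main fit and all counts of calls in the results have no block, and fits with the number as a block are alternatives. The fits were tested on simulated data.

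The members, lists and rules were chosen with earlier results of these data known. The named miRNAs are the 4 entries, the 3 most similar to each, the neighbours of mmu-miR-5099 by mean, the 5 most abundant other entries without arm suffix, up to 5 per direction whose call changes with the scaling, and the cell markers. mmu-miR-31-5p, mmu-miR-150-5p, mmu-miR-330-3p, mmu-miR-425-5p and mmu-miR-365-3p were named after their values were seen.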

Additional observations from a re-analysis of the deposited data

How the results depend on the processing

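The 4 entries kept their direction under every alternative that was run. They were chosen for this contrast and their groups did not overlap. Leaving out a library or changing the pseudocount therefore could not turn a direction, and only the size of the ratio is described. With a pseudocount of 5 the log2 ratio was 3.73 for mmu-miR-706 and 2.96 for mmu-miR-703. Leaving out each library in turn gave -2.49 to -1.89 for mmu-miR-5099, 3.96 to 4.77 for mmu-miR-706, 3.22 to 3.44 for mmu-miR-703 and 2.76 to 3.90 for mmu-miR-6240. Over the same left-out libraries, the median shift of the other miRNAs ran from -0.14 to -0.10 (-0.12 when T cell blasts 2 were left out, -0.10 for small EVs 5), and was 0.00087 when only mmu-miR-706, mmu-miR-703 and mmu-miR-6240 were left out, which turns its sign and is close to 0. The ratio of TMM-scaled sizes without the 4 entries to that with them was 0.994 to 1.03 over the left-out libraries and 0.976 with a logratioTrim of 0.3. Calls ran from 77 to 103 higher and 46 to 67 lower over the left-out libraries. With all libraries they were 110 higher and 48 lower at an equal sum of CPM, 83 higher and 76 lower when scaled to the miRNAs under 5%, 61 higher at a mean of at least 10 CPM, where fewer miRNAs were tested, 58 higher and 29 lower at an adjusted p under 0.05 (limma), and 63 higher with DESeq2, for which the cause was not tested. With the replicate number as a block limma called 106 higher and 73 lower. Each number has a library in both groups, so the block cannot change a log2 ratio in that fit. Without replicate 5 in both groups, a choice made after seeing the data, 113 were higher and 68 lower. Depth limits mmu-miR-706 and mmu-miR-703 in cells, where no library had over 3 reads.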
